A study of Mus musculus with 2 samples.

Results

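The genes described here are 35 symbols of megakaryocytes and platelets, chosen by name and not by their values, of which 34 were matched by symbol to a mouse Ensembl gene identifier among the 43346 in each gene table. Gp1bg was matched to no identifier and has no value. The members were sorted by what is known of them. Of the 34, 4 are genes known from platelet-biased stem cells (Vwf, Itga2b, Selp and Clu), 15 are late granule and glycoprotein genes, and the other 15 are receptors for soluble agonists, eicosanoid enzymes, tetraspanins and genes of the cytoskeleton, granule trafficking and integrin activation.

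Platelets are shed by megakaryocytes, large polyploid cells of the bone marrow. Some hematopoietic stem cells already transcribe a few platelet genes, such as von Willebrand factor and the αIIb integrin, and are known to favour that lineage. Chemokines, coagulation factors and the receptors of the platelet surface are made in quantity as a megakaryocyte matures, and are packed into granules or placed on the membrane that the platelet inherits.

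Total RNA was measured in 2 libraries, each from a pool of 100 hematopoietic stem cells of adult male C57BL/6J mice aged 5 to 6 weeks, and the labels number them as biological replicates 1 and 2. Both carry the same donor identifier under different biosamples, and no label says that separate animals were used, so the spread between them may be technical. The sources used here give neither the gate by which the cells were sorted nor any treatment of the mice. There is a single group and no second condition, so no test was run, and each level is given in both libraries as TPM, a transcript level per length and scaled to a fixed total within each library. In bulk samples such as these, fewer cells of a type and less RNA per cell cannot be told apart.

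The total of expected counts was 48313341 for replicate 1 and 28947093 for replicate 2, of which 24751 and 14207 lay in the members. Protein coding genes took 30.03% and 26.5% of TPM. Detection required 1 TPM or more together with 10 or more expected counts. Of 10 markers of stem and multipotent cells, 9 were detected in both libraries, led by Hlf, Kit and Cd34. The exception was Slamf1, the CD150 antigen, at 2.87 TPM in replicate 1 and 0.36 in replicate 2. The 9 include Flt3, at 58.63 TPM in replicate 1 and 42.88 in replicate 2, and Cd48, at 22.95 and 8.51. Of nuclear protein coding genes, 45.5% were detected in both libraries. The list holds markers of stem and of multipotent cells together, so its count cannot tell these cells apart. All 11 erythroid markers were detected in both as well, led by Car1, Car2 and Hba-a2, and their summed level was 2522 and 2253 TPM against 644 and 446 for the stem list.

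To show the DNA in front of genes that the results turn on, the 250 bases before the RefSeq start (GRCm38.p6, written along the gene's strand) are given for the highest of the platelet-biased genes and for a pair of subunits of the von Willebrand factor receptor. Capitals mark AGATAA or TGATAA, words bound by GATA factors, and CCGGAA or CAGGAA, words bound by ETS factors, on either strand, and a word on the opposite strand appears as its reverse complement. No marked words overlap in the windows shown. The windows are chr11:102469884-102470133 on the minus strand for Itga2b, chr11:70638872-70639121 on the plus strand for Gp1ba and chr16:30310782-30311031 on the minus strand for Gp5.
Itga2b: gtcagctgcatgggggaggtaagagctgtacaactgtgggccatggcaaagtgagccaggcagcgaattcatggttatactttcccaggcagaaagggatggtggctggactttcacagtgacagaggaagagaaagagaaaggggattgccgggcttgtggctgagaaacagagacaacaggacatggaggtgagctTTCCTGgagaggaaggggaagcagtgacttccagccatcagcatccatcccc
Gp1ba: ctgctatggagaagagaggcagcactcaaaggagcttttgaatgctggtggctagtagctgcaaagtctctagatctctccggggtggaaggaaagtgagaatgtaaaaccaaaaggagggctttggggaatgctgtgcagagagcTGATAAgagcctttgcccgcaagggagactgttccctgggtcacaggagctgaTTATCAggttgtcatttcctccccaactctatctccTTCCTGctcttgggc
Gp5: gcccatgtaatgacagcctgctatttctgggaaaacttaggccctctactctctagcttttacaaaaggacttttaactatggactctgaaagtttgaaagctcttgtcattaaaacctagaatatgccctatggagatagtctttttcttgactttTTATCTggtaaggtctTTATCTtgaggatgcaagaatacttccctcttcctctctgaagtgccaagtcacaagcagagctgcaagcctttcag
The Itga2b window holds a single ETS word, 52 bases before the start, and part of it is an exon of a non-coding Itga2b transcript in GENCODE M21. Gp1ba has a GATA word on each strand and an ETS word, and Gp5 has a pair of GATA words. Promoters of 300 bases, with 50 bases past the start, were found for 29 members. A GATA word stood in 7 of them (24.1%) against 17.5% of the 16317 coding promoters. An ETS word stood in 13 (44.8%) against 46.8%. Gp1ba, Mmrn1 and Pf4 held both kinds (10.3% against 6.74% of coding promoters). Read on both strands, the members' shares of each word were near those of coding promoters. On the gene's own strand alone a GATA word stood in 6 (20.7% against 9.87%) and an ETS word in 4 (13.8% against 28.4%).

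Of the 4 platelet-biased genes, 3 were transcribed in both pools at low to moderate levels, and Clu had no count in replicate 1. Many late genes were near or at 0 in replicate 1. Of the 34 members, 19 were detected in both libraries (55.9%), against a background of 45.5% of 21461 nuclear protein coding genes and 24.7% of all genes. The platelet-biased genes passed in 3 of 4, the late genes in 4 of 15 and the other members in 12 of 15. Replicate 1 detected those same 19 members and no more, and replicate 2 detected 26, so 7 members were seen in replicate 2 alone and 8 in neither. The 7 were Clu, Pf4, Gp1ba, Treml1, F5, F10 and Serpine2, of which all but Clu are late genes.

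**Figure D1:**
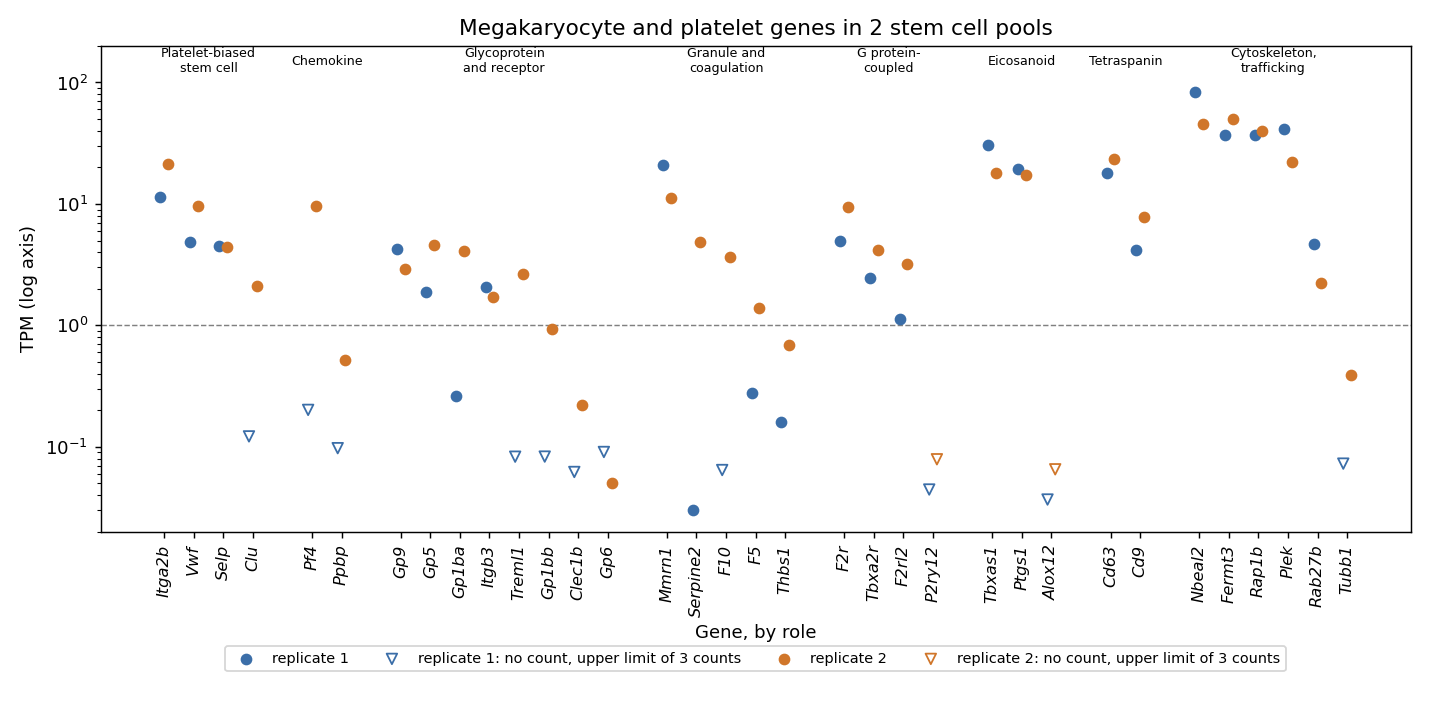
TPM (log axis) of the 34 matched genes in replicate 1 and replicate 2, grouped by role, with open triangles at the level that 3 counts would give where a library has no count and a dashed line at 1 TPM. Cytoskeletal and trafficking genes are highest, and 9 genes with counts in replicate 2 are open triangles in replicate 1.

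The median member stood at 1.98 TPM in replicate 1 and 4.14 in replicate 2, against 0.19 and 1.02 for all coding genes. By class, the median was 4.71 and 6.97 TPM for the platelet-biased genes and 0.03 and 2.66 for the late genes. For the other members it was 4.96 and 9.52. On coding transcripts alone, an alternative chosen after seeing the data, the platelet-biased median was 1.22 TPM (mean of both libraries) against 5.84 by gene, and 2 of these 4 genes in place of 3 were detected in both. An 8817-base Vwf transcript that M21 does not list, at 0.40 and 1.88 TPM, was not counted as coding, so this median may be too low. Most of the members' RNA lay in 5 genes, since Nbeal2, Fermt3, Rap1b, Plek and Tbxas1 made up 68.5% of the summed TPM in replicate 1 and 53.1% in replicate 2.

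Among the platelet-biased genes, Itga2b was the highest. It encodes αIIb, the α subunit of the fibrinogen receptor and the CD41 antigen, and lies on chromosome 11 from 102453297 to 102470122. Its level was 11.3 TPM (298 counts) in replicate 1 and 21.3 (643 counts) in replicate 2, a mean of 16.3 ± 7.09 (SD, n = 2). Vwf, the adhesive protein that tethers platelets to damaged vessels, stood at 4.88 TPM (605 counts) and 9.54 TPM (776 counts), or 7.21 ± 3.30 (SD, n = 2). Both genes were higher in replicate 2, by 0.86 for Itga2b and 0.84 for Vwf on the log2(TPM + 1) scale. Selp encodes P-selectin, which moves from granules to the surface of activated platelets, and was level between the pools at 4.54 and 4.40 TPM (267 and 149 counts); its small difference changed sign when TPM was rescaled to coding genes. Clu, the secreted chaperone clusterin, had no count in replicate 1 and 43 counts (2.12 TPM) in replicate 2. The authors' deposited posterior mean for Clu was 0.41 TPM in replicate 1 and 2.75 in replicate 2, so no lower bound of its fold is given. For other genes without a count, the limit is the level of 3 counts, and it covers counting error only, because PCR copies that carry no molecular identifier can come from 1 molecule.

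Both α-granule chemokines were without a count in replicate 1. Pf4, platelet factor 4, reached 80 counts and 9.67 TPM in replicate 2, at least 47.9-fold above the limit of 0.202 TPM in replicate 1. Ppbp, the precursor of platelet basic protein, had 9 counts and 0.52 TPM in replicate 2, at least 5.33-fold above its limit. The genes are neighbours on chromosome 5, with 2371 bases and no coding gene between them, and the ratio of their levels could be taken in replicate 2 only.

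The GPIb-IX-V complex, the platelet receptor for von Willebrand factor, has 4 gene products, and these were not level with each other. Gp9 had 4.25 and 2.91 TPM (94 and 36 counts). Gp5 had 1.88 and 4.59 TPM (125 and 172 counts). Gp1ba, the subunit that binds von Willebrand factor, had 0.26 and 4.09 TPM (20 and 183 counts). Only Gp9 was lower in replicate 2, and the log2 ratio of Gp1ba to Gp9 went from -3.59 to 0.48 (a mean of -1.56 ± 2.88, SD, n = 2), so the order of these subunits differed between the pools. Gp1bb had no count in replicate 1 and 29 counts (0.93 TPM) in replicate 2. It shares 1902 bases of its strand with Sept5, which also had no count in replicate 1 and stood at 5.13 TPM in replicate 2, so the Gp1bb value is uncertain.

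The other receptors of the platelet surface were low. Itgb3, the β3 subunit that pairs with αIIb, was even between pools at 2.07 and 1.70 TPM (283 and 174 counts), and its small difference changed sign on count scales. The αIIb gene exceeded its partner by 2.39 and 3.57 on the log2 scale with a pseudocount of 0.1 TPM (2.98 ± 0.83, SD, n = 2). In replicate 1 the counts were close, at 298 for Itga2b and 283 for Itgb3. The short non-coding transcripts Itga2b-208 and Itga2b-205 held 47.8% and 32.6% of the Itga2b TPM there. Its coding transcript stood at 2.23 TPM, near the 2.07 of Itgb3, so the excess in replicate 1 rested on short transcripts. In replicate 2 the coding transcripts stood at 7.43 TPM for Itga2b and 1.70 for Itgb3. Treml1, a receptor kept in the α-granule membrane, had no count in replicate 1 and 54 counts (2.66 TPM) in replicate 2, at least 32.0-fold more. The collagen receptor Gp6 had 0 and 1 counts and the podoplanin receptor Clec1b 0 and 7 counts, so neither was detected in either pool. Clec1b shares bases with Clec9a on its strand, which had no count.

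Granule cargo was split between a gene that was high in both pools and 4 that were not. Mmrn1, multimerin 1, which binds factor V in the α-granule, stood at 20.99 TPM (2932 counts) in replicate 1 and 11.3 TPM (838 counts) in replicate 2, or 16.1 ± 6.86 (SD, n = 2). Serpine2, a protease inhibitor of thrombin, went the other way with 2 counts (0.03 TPM) and 128 counts (4.86 TPM). F10, coagulation factor X, had 0 and 116 counts (3.63 TPM in replicate 2), with a deposited posterior mean of 0.14 and 3.88 TPM. Factor V is the cofactor of factor X, and its gene F5 had 0.28 and 1.39 TPM (66 and 184 counts). Thbs1, thrombospondin 1, had 0.16 and 0.69 TPM (29 and 72 counts) and was not called detected in either pool. The 15 late genes summed to 29.92 TPM in replicate 1 and 49.2 in replicate 2. Without Mmrn1, the 14 other late genes summed to 8.93 TPM in replicate 1 and 37.9 in replicate 2.

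The receptors for soluble agonists were detected with a single exception. F2r, the thrombin receptor PAR1, stood at 4.96 and 9.52 TPM (507 and 549 counts), and Tbxa2r, the thromboxane receptor, at 2.45 and 4.18 TPM (129 and 124 counts). F2rl2, the thrombin receptor PAR3, had 1.14 and 3.23 TPM. It lies inside Iqgap2 on the opposite strand, which stood at 48.5 and 37.9 TPM, and the sources used here do not say how strand was handled, so reads of the pair may not be told apart. P2ry12, the ADP receptor that clopidogrel blocks, had no count in either library, which allows up to 0.0446 TPM in replicate 1 and 0.0791 in replicate 2. All 3 detected receptors were higher in replicate 2.

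Thromboxane synthesis was represented at both of its enzyme steps, though coding transcripts held the smaller part of the TPM of each enzyme gene. Ptgs1, cyclooxygenase 1, stood at 19.4 and 17.3 TPM (18.4 ± 1.49, SD, n = 2) and Tbxas1, thromboxane synthase, at 30.7 and 17.9 TPM (24.3 ± 9.04). The log2 ratio of Ptgs1 to Tbxas1 was -0.66 and -0.05, and that of Tbxas1 to its downstream receptor gene Tbxa2r was 3.59 and 2.07. Alox12, the platelet 12-lipoxygenase, had no count in either library, which allows up to 0.0369 and 0.0654 TPM. Enzymes of the cyclooxygenase branch were thus detected in both pools and the platelet lipoxygenase in neither.

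The 4 highest members by mean, Nbeal2, Fermt3, Rap1b and Plek, belong to the machinery of secretion and integrin activation. Cd63, a tetraspanin of granules and lysosomes, stood at 17.9 and 23.3 TPM, and Cd9, a tetraspanin of the surface, at 4.17 and 7.85. Nbeal2, the gene mutated in gray platelet syndrome and needed to form α-granules, was the highest member by mean at 82.8 and 45.3 TPM (64.1 ± 26.5, SD, n = 2). Plek, pleckstrin, had 41.24 and 22.02 TPM. Fermt3 (kindlin-3) and Rap1b, which switch on integrins from inside the cell, stood at 36.7 and 50.4 TPM and at 37.1 and 39.6. Rap1b differed least of these, at 38.3 ± 1.74 (SD, n = 2). Rab27b, a GTPase of dense granule secretion, had 4.67 and 2.25 TPM. Tubb1, the β1-tubulin of the platelet's microtubule coil, had 0 and 9 counts and was the only one of these 6 cytoskeletal and trafficking genes not detected in both pools.

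Between the libraries, the members leaned towards replicate 2. Over the 26 members detected in either library, the median difference on the log2(TPM + 1) scale was 0.68, against -0.09 over the 11189 coding genes detected in either. It was 0.85 for the 4 platelet-biased genes, 1.41 for the 10 late genes and 0.23 for the 12 others. A member seen in a single library passed through that library and had to differ, so the same medians are given for all 34 members: 0.51 in all, 0.85 for the platelet-biased, 0.90 for the 15 late and 0.09 for the 15 other genes, where the median over all coding genes was 0. Over 2-fold higher in replicate 2 were 6 of the 26, against a background of 12.1% of those coding genes, and none was over 2-fold higher in replicate 1, against 11.2%. The 6 were Pf4, Serpine2, F10, Gp1ba, Treml1 and Clu, all of them undetected in replicate 1. Of the 19 members detected in both libraries, none differed by over 2-fold on this scale, and their median difference was 0.09, against -0.12 over coding genes detected in both. With smaller pseudocounts, rescaled TPM or count scales, 9 to 13 of the 26 were over 2-fold higher in replicate 2, against 11.8% to 16.4% of coding genes chosen alike. Itga2b and Vwf were among them on rescaled TPM.

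**Figure D2:**
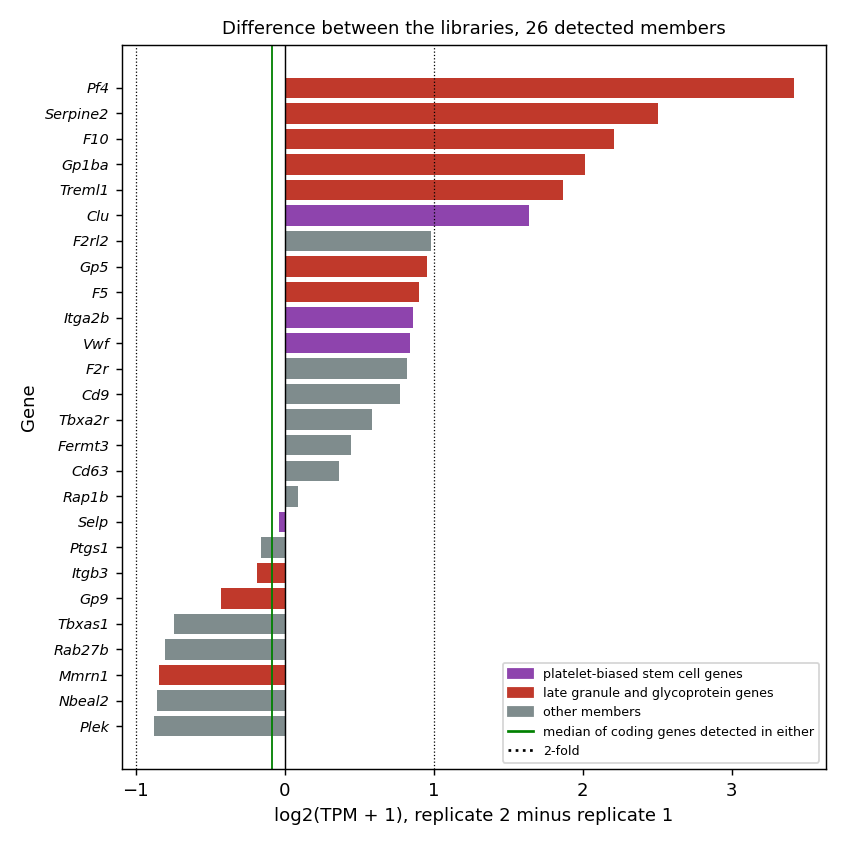
Difference in log2(TPM + 1), replicate 2 minus replicate 1, for the 26 members detected in either library, coloured by class, with dotted lines at 2-fold and a green line at the median of coding genes (-0.09). The 6 longest bars belong to late genes and Clu, and Plek, Nbeal2 and Mmrn1 are lowest.

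On the scale of rescaled TPM or of counts the direction held for most genes. With TPM as deposited, rescaled TPM, TMM, DESeq2 size factors and posterior mean TPM, 23 members were higher in replicate 2 on every scale, 6 were higher in replicate 1 on every scale, and Selp, Itgb3 and Ptgs1 changed sign. Of the 23, 9 had counts in replicate 2 only, so rescaling could not change their sign. On TPM as deposited, 23 and 9 members were higher in replicates 2 and 1, against 6911 and 6371 of the 21461 coding genes. The 6 members higher in replicate 1 on every scale were Gp9, Mmrn1, Rab27b, Tbxas1, Plek and Nbeal2. Of these, Plek was nearly level on count scales, at -0.04 with TMM and -0.03 with DESeq2 size factors against -0.88 on TPM. Its 353-base transcript Plek-203 made up 57.6% of its TPM in replicate 1 from 175.9 of 2317 counts. By the authors' deposited intervals around the posterior mean TPM, 16 of the 26 members lay wholly higher in replicate 2 (30.2% of the coding genes) and 5 wholly higher in replicate 1 (39.9%). Since 7 of the 26 passed through replicate 2 alone, the same counts are given without that filter. Of all 34 members they were 20 and 5, against 4119 and 4535 of the 21461 coding genes.

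Counts of 0 were part of this pattern. Of the 26 members detected in replicate 2, 4 (Pf4, Treml1, F10 and Clu) had no count in replicate 1, against a background of 5.48% of coding genes, and no member detected in replicate 1 lacked a count in replicate 2, against 0.519%. All 4 lay below 10 TPM in replicate 2. Of the 17 members detected there at 1 to 10 TPM these were 4, against 11.4% of coding genes in that range. Replicate 1 was the deeper library by total count. Detection in replicate 2 alone applied to 7 of the 26 members, against 8.68% of coding genes, and detection in replicate 1 alone to 0, against 4.01%.

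Markers of other cell types also differed between the pools. Of 11 markers of mature neutrophils and monocytes, 1 was detected in replicate 1 and 7 in replicate 2, and their summed level was 5.11 and 344 TPM, led by Ngp, S100a9 and S100a8, with Mmp8 and Retnlg at 0 in both. B cell markers were detected in 3 and 7 of 8, with a sum of 11.97 and 38.65 TPM, led by Cd79a, Igll1 and Blnk. Macrophage markers summed to 10 and 11.1 TPM, led by Cd68, Csf1r and Vcam1, with C1qa, C1qb and Cd5l at 0 in both. The part of other cells in the members' difference was not tested.

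**Figure D3:**
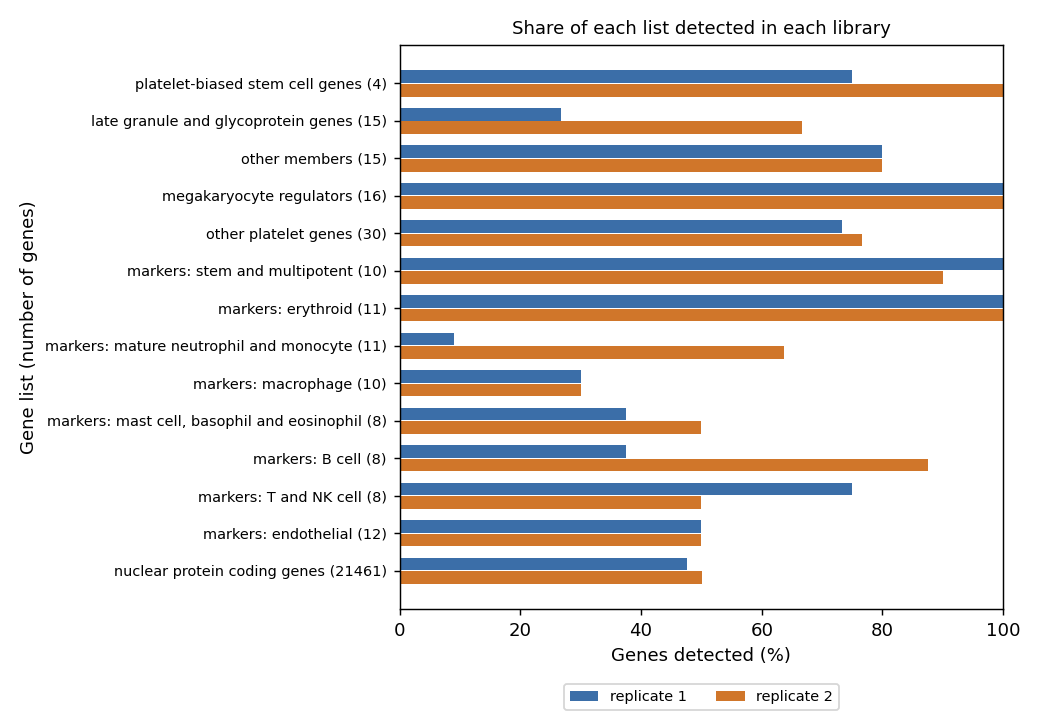
Percent of the genes of each list detected in replicate 1 and replicate 2, with the number of genes in parentheses. Regulators and erythroid markers are at 100% in both, late granule and glycoprotein genes and mature neutrophil and monocyte markers are higher in replicate 2, and other members are level.

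In other lists the markers went both ways. Endothelial cells also make Vwf, Selp and Cd9, and of 12 endothelial markers 5 were detected in both, led by Pecam1, Egfl7 and Esam, which blood cells can express too, with a sum of 79.4 and 46.7 TPM. Pecam1 and Egfl7 made up most of that sum. Emcn, at 1.88 and 3.31 TPM, and Plvap, at 0 and 1.99 (68 counts), were higher in replicate 2 like Vwf, Tek was level at 1.94 and 1.71, and Cdh5, Kdr, Cldn5 and Stab2 were at 0 in both pools. T and NK cell markers summed to 58.4 and 66.6 TPM, led by Nkg7, Ncr1 and Lck, with Cd3d at 0 in both, and were detected in 6 and 4 of 8. Nkg7 (36.2 and 55.8 TPM) and Lck (1.19 and 6.95) were higher in replicate 2, and Klrb1c (7.24 and 0.43) and Cd3e (3.56 and 0) in replicate 1. Markers of mast cells, basophils and eosinophils summed to 38.75 and 11.95 TPM, led by Prg2, Cpa3 and Hdc, with Prss34, Fcer1a and Epx at 0 in both. Prg2 went from 31.75 to 1.79 TPM between the libraries and Hdc from 0.01 to 4.96. Their part in the members' levels was not tested.

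The regulators of megakaryocytes were present without exception. All 16 transcription factors and receptors of the list passed in both libraries, and their median was 43.7 TPM in replicate 1 and 39.0 in replicate 2, with a median difference of -0.01. The highest by mean were Zfpm1 (the GATA1 cofactor FOG1) at 116 and 124 TPM, Runx1 at 113 and 84.9, Etv6 at 125 and 69.7, Nfe2 at 71.4 and 78.1, and Meis1 at 86.7 and 60.2. The levels of these 5, the top of their list, exceeded those of every platelet-biased or late member in both pools. This did not hold for the whole list. Mafk (7.36 and 12.97 TPM) and Srf (10.16 and 8.44) lay below Itga2b in both pools.

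Of 30 other platelet genes, 21 were detected in both libraries (70.0%, against the 45.5% of coding genes). The highest were Srgn (the granule proteoglycan serglycin) at 433 and 353 TPM, Tln1 (talin) at 117 and 85.9, Rasgrp2 (which activates Rap1) at 74.7 and 64.1, and the signalling genes Syk at 47.8 and 37.7 and Plcg2 at 32.8 and 35.2. Tln1 and Rasgrp2 act with Rap1b and Fermt3 above in activating integrins from within, and all of these were detected in both pools. Tln1 and Rasgrp2 are named here for their high levels, so their detection followed from that choice. The receptors Gp6 and Clec1b, which signal to Syk, were not detected. Fcer1g, the ITAM-bearing chain that pairs with Gp6, was detected in both pools at 24.07 and 14.79 TPM. P2rx1 and P2ry1, receptors for ATP and ADP, had no count in replicate 1 and 5.18 and 2.27 TPM in replicate 2, the same side as Pf4. Pdgfa was detected in replicate 1 alone (1.37 and 0.33 TPM). Itga2, Gnaz, Cd226 and Pdgfb stayed below 1 TPM in both, and Myl9 and Mpig6b had no count in either.

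Neighbouring members did not always share a level. Selp ends 1811 bases before F5 on chromosome 1, and Selp was detected in both pools at 4.54 and 4.40 TPM while F5 was at 0.28 and 1.39. Cd9 and Vwf, 51982 bases apart on chromosome 6, and F2r and F2rl2, 78365 bases apart on chromosome 13, were higher in replicate 2 in all 4 genes.

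Total RNA includes unspliced and non-coding forms, and several of the abundant members owed much of their TPM to them. Of 22 members with at least 10 counts in both libraries, 14 have several transcripts, and the same transcript led in both libraries for 5 of them (35.7%), against 51.2% of coding genes. For the 13 whose transcripts all have a biotype in GENCODE M21, a transcript with no coding biotype led in at least 1 library for 6 (46.2%), against 33.6% of coding genes. The 6 were Itga2b, Selp, Itgb3, Ptgs1, Tbxas1 and Nbeal2. Short transcripts weigh more in TPM than in counts, and the 268-base Itga2b-208 made up 47.8% of Itga2b in replicate 1 from 25.3 counts.

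**Figure D4:**
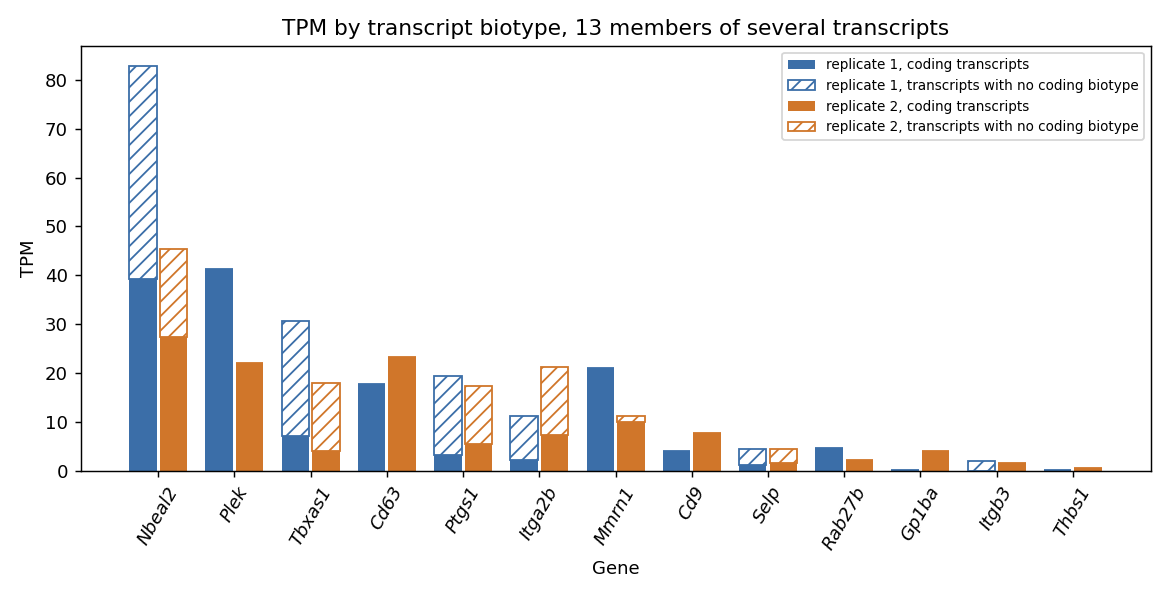
TPM of the 13 members with several transcripts and at least 10 counts in both libraries, as filled bars for coding transcripts and hatched bars for transcripts with no coding biotype, in replicate 1 and replicate 2. Ptgs1, Tbxas1, Itga2b and Selp are mostly hatched in both libraries, and Plek, Cd63 and Cd9 are nearly all filled.

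The coding transcript of Itga2b stood at 2.23 TPM in replicate 1 and 7.43 in replicate 2, which is 19.7% and 34.8% of the gene's TPM but 79.4% and 69.4% of its counts. Coding Selp was 1.25 and 1.73 TPM, with the retained-intron transcript Selp-202 carrying 72.4% in replicate 1. Coding Vwf transcripts were at 0 and 1.47 TPM, and an 8817-base Vwf transcript that M21 does not list at 0.40 and 1.88. Vwf was led in replicate 1 by the processed transcript Vwf-206 (41.9%).

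Itgb3 was assigned in full to the non-coding transcript Itgb3-202 in replicate 1 and in full to the coding Itgb3-201 in replicate 2. Ptgs1 had 3.17 and 5.45 TPM in its coding transcript, with the retained-intron form Ptgs1-202 at 75.8% in replicate 1. Coding Tbxas1 made up 7.10 and 4.03 TPM, and the retained-intron form Tbxas1-202 led in both libraries. For Nbeal2, coding transcripts held 47.3% and 60.3% of TPM but 95.6% and 97.1% of counts. In contrast Plek, Cd63 and Rab27b were assigned wholly to coding transcripts in both libraries, and Mmrn1 at 100% and 89.4%.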

How the data were processed

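Total RNA sequencing of 2 libraries of 100 cells was analysed from gene and transcript tables. The authors deposited expected counts (estimated, not all whole) per gene and transcript, with TPM and FPKM in the same tables, and column names are those of RSEM per the file headers. The percent of a gene carried by each transcript was deposited by the authors too, as were a posterior mean TPM and an interval around it. The build is mm10 and the annotation GENCODE M4, per the labels. The aligner, program versions, trimming and strand handling are steps not given in the sources used here.

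Entries that name no gene held 0.012% and 0.00719% of expected counts and were left out. Biotypes and positions came from GENCODE M21 (GRCm38), and promoters those of RefSeq (GRCm38.p6). The members and lists were chosen with earlier results of these data known. All members are named, and of the regulators and other platelet genes the 5 highest by mean and those not detected in both libraries. Of each marker list the 3 highest are named. Fcer1g, other markers, Slamf1, overlapping genes and transcripts were named after their values were seen. Detection needed 1 TPM and 10 counts, differences used a pseudocount of 1 TPM and ratios 0.1 TPM. On other scales the pseudocount of 1 was in the unit of that scale. A count of 0 was given the limit of 3 counts. Lists are described by counts and medians beside coding genes outside the mitochondrial genome.

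TMM factors (edgeR 4.0.16) and size factors (DESeq2 1.42.0, R 4.3.3) on rounded expected counts served as alternatives, beside other thresholds, pseudocounts, units and single libraries, and, added after the data were seen, coding transcripts alone. Differences, counts and the motif search were tested on simulated data. Other steps used Python 3.11.15, pandas 2.3.3, numpy 2.4.6 and matplotlib 3.10.9.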

Additional observations from a re-analysis of the deposited data

How the results depend on the processing

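No paired analysis was possible because both libraries belong to a single group. The number of members detected in both libraries (19) moved to 9 at 5 TPM and to between 19 and 26 in a single library. The mean over both libraries of the members' median level (3.06 TPM) was 11.1 after rescaling to coding genes, 5.38 over members detected in either library, and 1.98 to 4.14 in single libraries. The median difference over all 34 members (0.51) was 0.90 and 0.75 with pseudocounts of 0.1 and 0.5, 0.95 on rescaled TPM, 0.50 with TMM, 1.16 with DESeq2 size factors, 0.68 over members detected in either library and 0.60 on coding transcripts. Members over 2-fold higher in replicate 2 (6) numbered 14 and 11 with those pseudocounts, 17 on rescaled TPM, 13 with TMM and 19 with size factors. Over the 26 detected in either library, these counts were 9, 9, 13, 11 and 13, against 14.5%, 13.5%, 16.4%, 11.8% and 15.4% of the coding genes chosen alike. In replicate 1 there was 1 with a pseudocount of 0.1. On the gene's own strand, ETS words stood in 4 promoters (13.8% against 28.4% of coding promoters), GATA words in 6 (20.7% against 9.87%) and both kinds in 0 (2.25% of coding promoters). In single libraries the log2 ratios ranged from 2.39 to 3.57 for Itga2b over Itgb3, from -3.59 to 0.48 for Gp1ba, from -5.44 to -1.55 for Gp1bb and from -1.14 to 0.64 for Gp5, each over Gp9. Of the values that these results rest on, 18 moved and 53 stayed within the spread between libraries or, for counts, near the reported count. Among the values of single classes, 22 moved and 122 stayed. A median or ratio from a single library lies within the spread of both libraries by construction. The ratios that pass 10 counts in both genes were the same values again. Such values could only stay, so both tallies overstate how stable the results are. On coding transcripts the median of the platelet-biased genes (5.84 TPM, mean of both libraries) was 1.22, with the Vwf transcript that M21 does not list left out. Differences between libraries, 2-fold counts and shared leading transcripts cannot be had with a library left out, and Gp1ba and Gp5 alone of the Gp9 ratios pass 10 counts in both genes. With 2 libraries of 100 cells, a difference between them has no replicate check.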
